A study of Mus musculus with 12 samples.

Results

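The 691 members described here are the expressed genes of mouse chromosomes 3 and 19 in 2 lymphoma cell lines, 449 probe sets on chromosome 3 and 242 on chromosome 19, of 72688 probe sets on the array. A probe set was a member when its identifier placed it on either chromosome, the platform gave it a single gene symbol and its mean log2 value over the 12 arrays was above 8. The same class on the other 17 autosomes held 7262 probe sets, and 30638 probe sets of any level carried a single symbol. Both chromosomes had been chosen because their expressed genes were higher after interferon beta (IFNβ) in 30s cells, so that comparison is a description here and carries no test. The comparison between the lines shares the vehicle arrays of 30s with it, while the effect of IFNβ in 3s cells uses arrays that the choice did not.

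3s and 30s are established lymphoma lines from spleens of C57BL6/CBA mice that carried Mx1Cre, the EµMyc transgene and p53+/-. In 3s the Runx1 gene is floxed (Rx1fl/fl), and in 30s it is wild type (Rx1WT/WT) and cannot be excised. There were 4 groups of 3 cultures, 3s after IFNβ, 3s after vehicle, 30s after IFNβ and 30s after vehicle, with 50 U/mL IFNβ or PBS with albumin given for 72 h and 6 days of growth afterwards. Cre is driven by the interferon-responsive Mx1 promoter in both lines, so 30s received the interferon and the recombinase without a floxed target. Each genotype is represented by 1 line, and a difference between 3s and 30s is therefore a difference between these lines, which cannot be told apart from their genotypes. The titles call the replicates biological, and p-values measure the spread between these cultures of 1 line. The genotype field of the labels gives the floxed form for every IFNβ array and the wild-type form for every vehicle array in both lines, against the protocol and the cell names, and groups were taken from the titles.

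Chromosomes 3 and 19 are unlike a pathway, because neighbouring genes on a chromosome mostly have unrelated roles. Among the members are ribosomal and proteasomal genes, cell cycle genes, lipid and mitochondrial enzymes and several B-cell genes, and chromosome 19 is the smallest mouse autosome. A median over all expressed genes of a chromosome therefore describes position rather than function. No DNA measurement was analysed here. In bulk cultures fewer cells of a type and less RNA per cell cannot be told apart. In B-lineage cells the Eµ enhancer drives Myc, which is known for raising the genes of ribosome biogenesis and cell division.

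All 12 arrays had the profile of B cells. Of 7 measured B-cell markers 5 had a mean above 8 (Cd79a, Cd79b, Ebf1, Pax5 and Ptprc), whereas the 6 T and NK cell markers and the 6 myeloid markers all lay below it, and 1 of 5 stromal and endothelial markers (Pecam1) lay above it. The mean of the B-cell list was 10.76 to 10.81 in 3s after IFNβ, 10.91 to 11 in 3s after vehicle, 11.37 to 11.51 in 30s after IFNβ and 11.28 to 11.41 in 30s after vehicle. Those 5 were higher in 3s than in 30s with vehicle, by 0.26 to 0.74, whereas Igll1, a surrogate light chain gene of early B cells, was lower by 4.66 and Vpreb1, another such gene, by 0.71, and the part of such differences in the results below was not tested. Runx1, on chromosome 16, had log2 values of 7.69 to 8.03 in 3s after IFNβ and 7.78 to 8.0 in 3s after vehicle, and of 8.20 to 8.43 in 30s after IFNβ and 8.15 to 8.38 in 30s after vehicle. Its single probe set did not differ after IFNβ in 3s beyond the spread of the arrays (log2 difference −0.02, SE 0.10, limma adjusted p = 0.992), and no source used here says whether its probes lie in the excised part, so it does not check the excision.

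Interferons act through the interferon-stimulated response element, searched here as GAAANNGAAA on either strand in the RefSeq promoters of GRCm38.p6, each running from 250 bases before a gene's start to 50 after it. A promoter was found for 269 members of chromosome 3 and 177 of chromosome 19. The motif occurred in 10 (3.72%) and 3 (1.69%) of these, against 3.85% of the promoters of expressed genes on the other autosomes and 3.99% of all 27025 genes in the table. In 10 members it lay wholly before the start. Below are 3 of those stretches with the motif in capitals, Hax1 because it was the only one of the 10 past the limma threshold after IFNβ in 30s, Ctss because it was the only one higher in 3s than in 30s, and Trmt10a because it was the one lowest in 3s relative to 30s. Hax1 passed narrowly (0.28, limma adjusted p = 0.0499), and Kat5, also among the 10, narrowly did not (0.32, adjusted p = 0.052). In Trmt10a the motif reads on the opposite strand.
Hax1, chr3:89998875-89998924, minus strand: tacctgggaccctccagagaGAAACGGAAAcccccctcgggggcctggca
Ctss, chr3:95526745-95526785, plus strand: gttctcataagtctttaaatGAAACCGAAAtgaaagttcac
Trmt10a, chr3:138143231-138143280, plus strand: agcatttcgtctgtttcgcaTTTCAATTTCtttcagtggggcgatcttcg
Over the 10 members the IFNβ effect ranged from −0.03 to 0.08 (log2) in 3s, where 0 of 10 passed limma's test, and from 0.03 to 0.32 in 30s. These matches are letters in a window and say nothing on whether a factor binds there.

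The question of how the 2 lines compared before treatment was addressed with the vehicle arrays. Genes of both chromosomes were lower in 3s than in 30s along their whole length. For each array the log2 deviation of every expressed probe set from its own mean was taken, and the array's median over the other autosomes was subtracted. On this scale the median of chromosome 3 was −0.228, −0.222 and −0.226 on the 3s vehicle arrays, against 0.202, 0.186 and 0.166 on the 30s vehicle arrays. For chromosome 19 the values were −0.236, −0.231 and −0.190 in 3s, against 0.182, 0.133 and 0.109 in 30s. The arrays of the 2 lines did not overlap on either chromosome. Over all 12 arrays, no other autosome had a median outside −0.125 to 0.117.

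**Figure D1:**
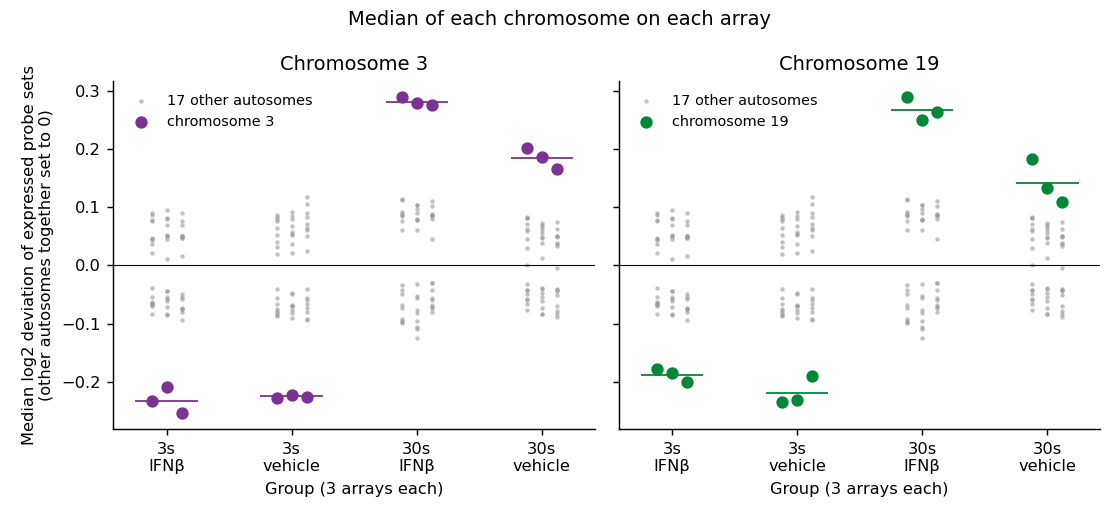
Median log2 deviation of the expressed probe sets of chromosome 3 (left) and chromosome 19 (right) on each of the 12 arrays, by group, with the other autosomes together set to 0. Large points are arrays, lines are group means and small grey points are each of the 17 other autosomes. Both chromosomes lie below every other autosome in 3s and above every other autosome in 30s, where the IFNβ arrays are the higher ones.

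Gene by gene, the median difference of 3s over 30s with vehicle was −0.42 for chromosome 3, a ratio of 0.748, and −0.36 for chromosome 19, a ratio of 0.780. It was −0.35 and −0.29 without subtracting the other autosomes, whose own median was then 0.07. Of the chromosome 3 members, 306 (68.2%) were lower and 44 (9.80%) higher in 3s by limma at an adjusted p under 0.05. On chromosome 19, 147 (60.7%) were lower and 29 (12%) higher. Of the expressed probe sets of the other autosomes, 16.8% were lower and 35.4% higher, and 24.7% of all probe sets tested were called in either direction. The lower calls were thus more frequent on both chromosomes than on the other autosomes, and the higher calls less frequent, as counts over probe sets with no test of the list. In IFNβ-treated cultures the medians of 3s over 30s were −0.52 and −0.45.

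The medians of the other autosomes ranged from −0.16 (chromosome 10) to 0.19 (chromosome 7), so chromosomes 3 and 19 both stood beyond that range. The 17 lay on both sides of 0. Chromosomes 1, 2, 6, 7, 8, 9, 13, 15 and 17 had medians above 0, from 0.02 to 0.19, and chromosomes 4, 5, 10, 11, 12, 14, 16 and 18 had medians from −0.16 to −0.09. These 2 sets are divided at the value set to 0, and chromosome 13, at 0.02, lay close to it. Both chromosomes 3 and 19 lay beyond the lower set.

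**Figure D2:**
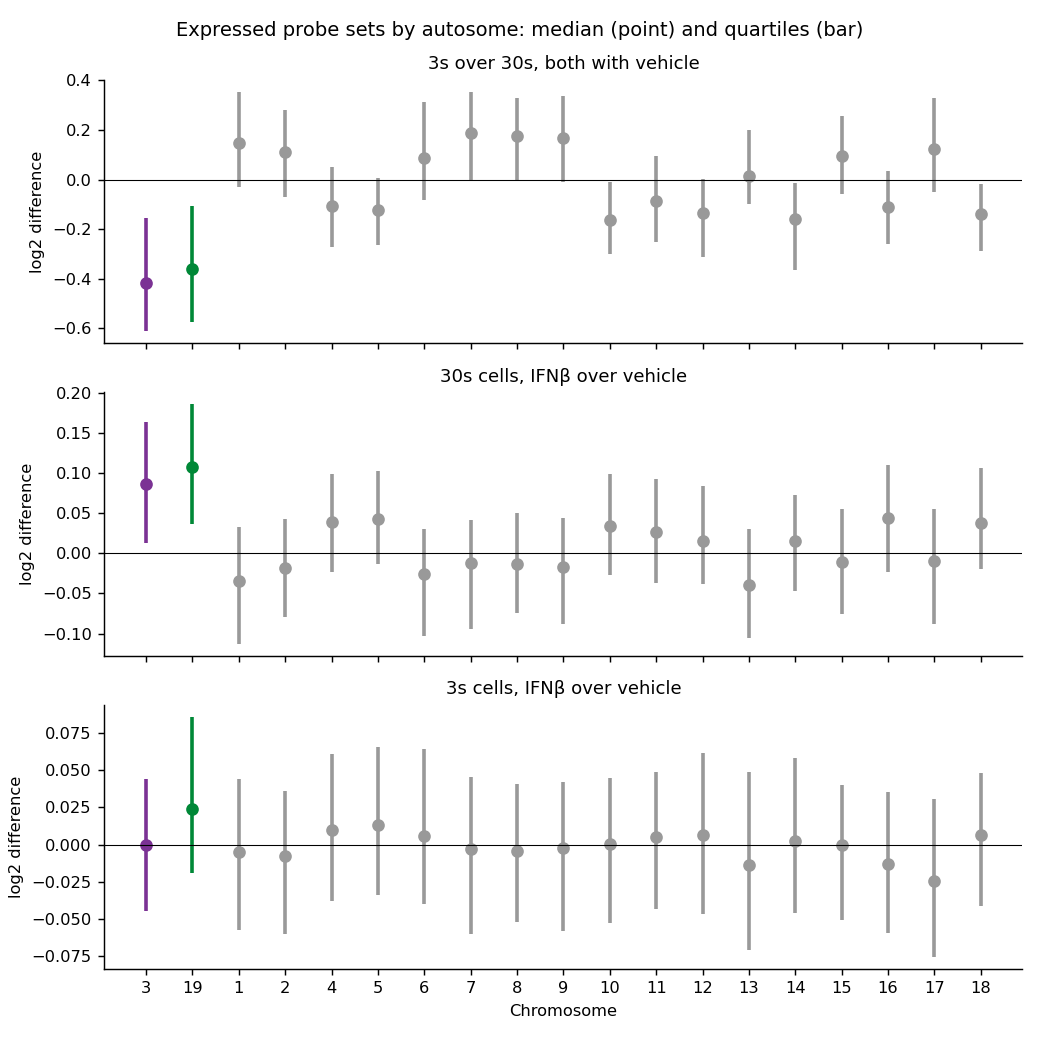
Log2 differences of expressed probe sets by autosome, with chromosomes 3 and 19 at the left; points are medians and bars run between the quartiles. The panels show 3s over 30s with vehicle, then IFNβ over vehicle in 30s and in 3s, each on its own axis. Between the lines chromosomes 3 and 19 have medians of −0.42 and −0.36, and the next lowest autosome, chromosome 10, has −0.16.

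Protein-coding genes, lncRNAs and small nucleolar RNAs of both chromosomes stood apart from those of the other autosomes. Medians of protein-coding genes were −0.49 on chromosome 3 (n = 321) and −0.43 on chromosome 19 (n = 191), against 0.03 for 5288 on the other autosomes. Of these, 266 (82.9%) and 139 (72.8%) were lower in 3s and 15 and 17 higher, against 17.8% lower and 41.4% higher on the other autosomes. The 18 lncRNAs of both chromosomes had a median of −0.52 against −0.10 for 124 lncRNAs elsewhere, and the 10 small nucleolar and guide RNAs had −0.66 against −0.25 for 129. Chromosome 19 held only 3 of these lncRNAs (median −0.41) and 2 of the small nucleolar and guide RNAs (−0.46), so these medians rest mostly on chromosome 3. After IFNβ in 30s the 3 lncRNAs of chromosome 19 had a median of −0.27, against 0.12 for the 15 of chromosome 3.

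Pseudogenes had no such lower median, and that of spliceosomal snRNAs was above 0 but lower than on the other autosomes. The 102 pseudogenes had a median of −0.05 against −0.07 for 1335 on the other autosomes, and the 40 snRNAs one of 0.21 against 0.37 for 230. Of the snRNAs 27.5% were lower and 45% higher in 3s by limma, against 10.4% and 56.5% on the other autosomes. Such genes have near-identical copies elsewhere in the genome, which leaves their values uncertain, and the part of this in their medians was not tested. The 8 miRNAs had a median of −0.36 against −0.18 for 98 elsewhere. For 9 members the RefSeq gene of that symbol lies on a chromosome other than the one in the identifier. Their median was 0.0075, with 3 higher and 0 lower (limma, adjusted p under 0.05).

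**Figure D3:**
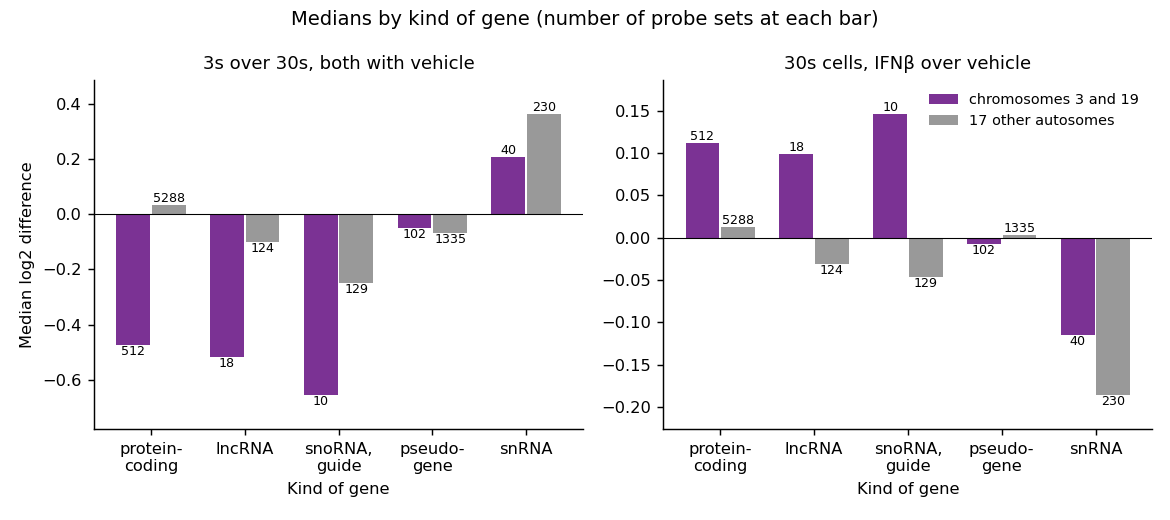
Median log2 difference by kind of gene for chromosomes 3 and 19 (left bar of each pair) and the 17 other autosomes (right bar), for 3s over 30s with vehicle and for IFNβ over vehicle in 30s. The number of probe sets stands at each bar. Protein-coding genes, lncRNAs and snoRNAs of chromosomes 3 and 19 lie apart from the other autosomes, while pseudogenes and snRNAs lie on the same side of 0 or near it.

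Position was examined in blocks of 24 to 27 consecutive members in RefSeq gene order. All 18 blocks of chromosome 3 had a median below 0 between the lines, from −0.61 (Rnu1b1 to Gdap2) to −0.17 (Alg14 to Hadh). All 9 blocks of chromosome 19 did too, from −0.50 (Blnk to Scd1) to −0.23 (Pola2 to Gm16437). Below −0.2 were 17 of 18 and 9 of 9 blocks, against 21 of 288 blocks on the other autosomes. The single split that best divided chromosome 3 lay between Setd7 and Foxo1, with medians of −0.52 before and −0.39 after it, and it removed 0.991% of the absolute deviation. On chromosome 19 the best split lay between Morf4l1b and Arhgap19 (−0.34 and −0.46, 0.766% removed). At this resolution the difference was thus not limited to 1 segment of either chromosome.

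The size of the difference varied with the level of the genes. For protein-coding genes of chromosome 3 the median was −0.14 at mean log2 values of 5 to 6 and −0.40 at 6 to 7, both below the threshold for members, −0.55 at 8 to 9 and −0.42 above 12. On chromosome 19 these medians were −0.13, −0.18, −0.38 and −0.43, and on the other autosomes −0.10, −0.03, 0.09 and −0.03. At 5 to 6 the other autosomes thus had nearly the same median as both chromosomes. Just inside the threshold, up to 0.25 above it, the medians of all kinds were −0.54 on chromosome 3 (n = 20) and −0.27 on chromosome 19 (n = 21). Just outside it, down to 0.25 below it, they were −0.12 (n = 17) and −0.56 (n = 16).

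A few members went far beyond the rest. Tspan2, which encodes a tetraspanin, had log2 values of 8.02, 8.31 and 8.53 on the 3s vehicle arrays, against 13.16, 13.18 and 12.83 on the 30s vehicle arrays. Its neighbour Tshb, the beta chain of thyroid-stimulating hormone, had 5.78, 6.21 and 6.51 in 3s, against 10.77, 10.13 and 9.94 in 30s. Of these adjacent genes, Tspan2 fell by 4.77 (SE 0.14, limma adjusted p = 7.82e-10), and Tshb was at −4.11 (SE 0.22).

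Golim4, which encodes a Golgi membrane protein, had 6.19, 6.17 and 6.28 in 3s, against 10.33, 10.35 and 10.35 in 30s (−4.13, SE 0.05). Arhgap29 was lower by 3.19 (SE 0.08). Tshb, Golim4 and Arhgap29 were above 8 in 30s only and passed the threshold through those arrays, so they had to differ, and their differences are given as descriptions. These were the only 4 members of chromosome 3 lower by more than 2 in 3s, and 0 members of chromosome 19 were. Apart from the transcribed pseudogene Gm5512 at −1.53, the lowest there were Gpam, an acyltransferase of triglyceride synthesis (−1.14, SE 0.08), Cacul1, a cullin-like protein of the cell cycle (−0.99, SE 0.05), Got1, the cytosolic aspartate aminotransferase (−0.94, SE 0.04), and Exoc6, a subunit of the exocyst (−0.90, SE 0.04). Cacul1 too was above 8 in 30s only, so it had to differ and its value is likewise a description.

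Against the direction of both chromosomes stood several genes higher in 3s. Ms4a1, the B-cell surface protein CD20, had 11.45, 11.55 and 11.48 in 3s, against 9.18, 9.08 and 9.49 in 30s, a rise of 2.24 (SE 0.13, limma adjusted p = 1.82e-07). Atl3, a GTPase that shapes the endoplasmic reticulum, had 11.26, 11.34 and 11.27 in 3s, against 9.55, 9.44 and 9.59 in 30s, a rise of 1.76 (SE 0.07). Smarca2, an ATPase of the SWI/SNF chromatin remodellers, was higher by 1.07 (SE 0.05), and Bloc1s2, a subunit of the lysosome-related organelle complex BLOC-1, by 1.4 (SE 0.08). Smarca2 was above 8 in 3s only and passed the threshold through those arrays, so it had to differ and its difference is a description.

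On chromosome 3 the leading genes higher in 3s were Syde2 (1.79, SE 0.08), Camk2d, a calcium/calmodulin-dependent kinase (0.93, SE 0.06), Tiparp, an ADP-ribosyltransferase (0.93, SE 0.06), and Dbt, a subunit of the branched-chain keto acid dehydrogenase (0.90, SE 0.09). Like Smarca2, Syde2 was above 8 in 3s only, so it had to differ. For each of these 16 genes, higher or lower, the 3s and 30s vehicle arrays did not overlap. All 3s arrays lay below 30s in 71.9% of chromosome 3 members, 65.3% of chromosome 19 members and 23.2% of the expressed probe sets elsewhere, and above in 12.7%, 12.8% and 42.5%. For the 16 genes no single array ended its call when left out. The 16 were picked as the largest called differences, so neither the lack of overlap nor the stable calls give them support.

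**Figure D4:**
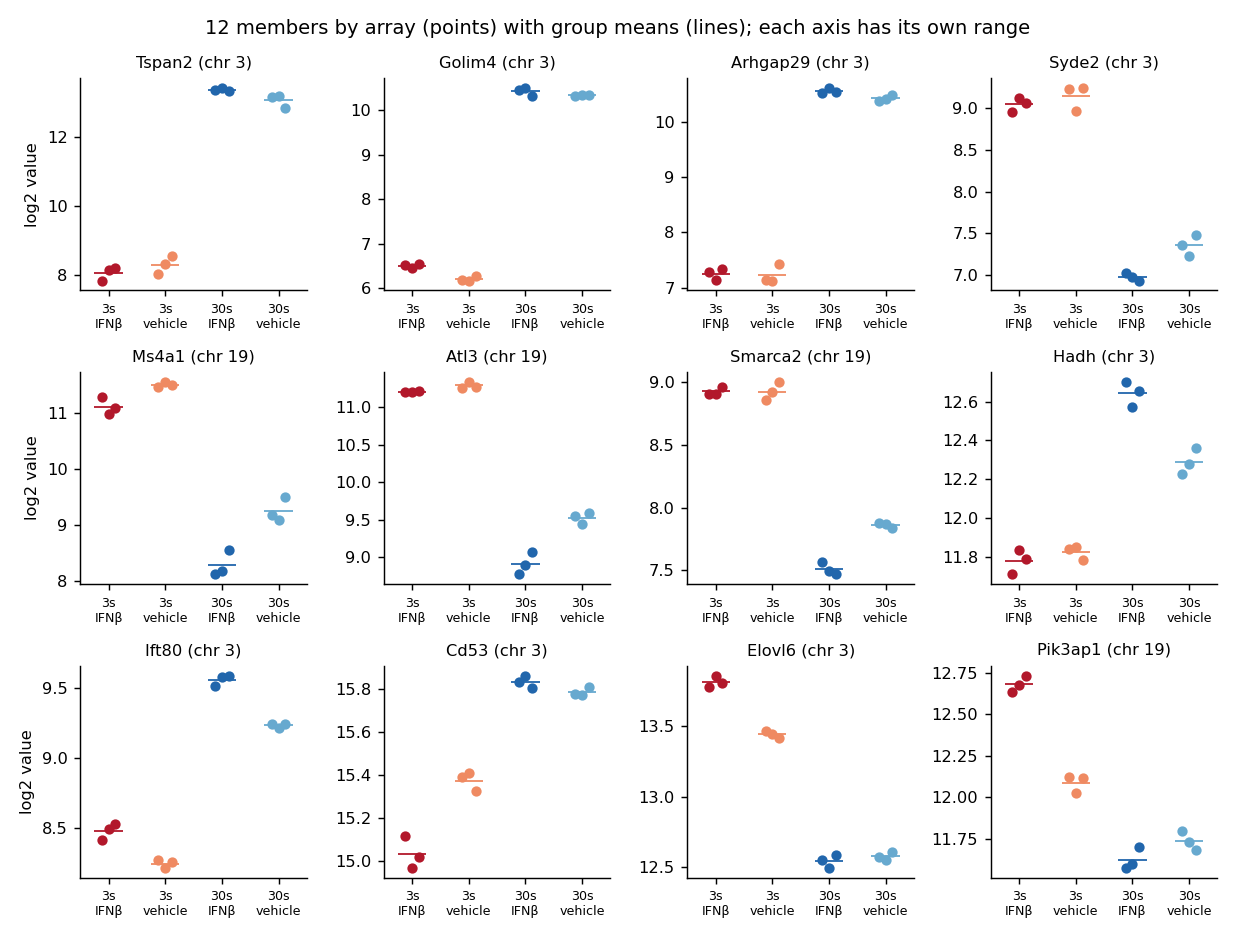
Log2 values of 12 members on each of the 12 arrays (points) with group means (lines), in the order 3s IFNβ, 3s vehicle, 30s IFNβ and 30s vehicle; each panel has its own axis. Tspan2, Golim4 and Arhgap29 are lower in 3s by 3.19 to 4.77, Ms4a1, Atl3 and Smarca2 are higher in 3s, and Pik3ap1, Elovl6 and Cd53 differ between IFNβ and vehicle in 3s.

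Groups of genes with a known role were described by lists of members, each with its count past the limma threshold between the lines. Over all 512 protein-coding members 79.1% were lower and 6.25% higher in 3s, and the counts of most lists were close to those shares, so they describe the members named and not the lists. All 3 proteasome members were lower in 3s, Psmd4 by 0.41, Psmb4 by 0.29 and Psma5 by 0.26, subunits of the complex that degrades tagged proteins. Of 6 members for ribosome and translation 5 were lower, among them Eif4e, the cap-binding initiation factor (−0.31), and Eif3a (−0.45), whereas Rps3a1, a ribosomal protein near the top of the scale at a mean of 16.85, was at −0.04 (adjusted p = 0.539). For survival and the cell cycle 11 of 12 were lower, including Ect2, an exchange factor of cell division (−0.85), the spindle motor Kif11 (−0.37), the cohesin subunit Smc3 (−0.21) and Mcl1, which protects from apoptosis (−0.16). The 12th, Cdca5, was at −0.09 (adjusted p = 0.452).

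Transcription and chromatin held 14 members, of which 12 were lower, such as Setdb1, a histone methyltransferase (−0.51), Tet2, a DNA demethylation enzyme (−0.43), and Trim33 (−0.31), and 1, Smarca2, was higher. NF-kB, Ras and kinase signalling held 8 members with 5 lower, among them the kinase subunit Pik3ca (−0.49), and 1 higher, Jak2 (0.43). Nras was at 0.01 (adjusted p = 0.856) and Rela at −0.01 (adjusted p = 0.956). Of 12 metabolism and redox probe sets 8 were lower, with Gstp1 (−0.70), Ndufs8 (−0.61), Ndufv1 (−0.56) and Aldh18a1 (−0.60) among them. The 3 that were higher were Elovl6, a fatty acid elongase (0.87), and both probe sets of the desaturase Scd1 (0.78 and 0.31).

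In the lymphoid list 4 of 8 members were higher in 3s, Ms4a1, Lef1 (0.71), Pik3ap1 (0.35) and Ctss (0.29), and 2 were lower, Cd53 and Blnk (both −0.41). Both members of the list named interferon and innate were lower, Tifa by 0.50 and Isg20l2 by 0.49. These were the only 2 of its 16 genes to meet the rule for members. After IFNβ, Isg20l2 was at 0.25 in 30s (limma adjusted p = 0.0937) and −0.01 in 3s (adjusted p = 0.996). It is therefore not read as an interferon gene here.

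After IFNβ, 30s cells had higher values for the genes of both chromosomes, the pattern for which the chromosomes were chosen. The chromosome 3 median was 0.289, 0.280 and 0.276 on the IFNβ arrays, against 0.202, 0.186 and 0.166 on the vehicle arrays. For chromosome 19 it was 0.290, 0.251 and 0.263 with IFNβ, against 0.182, 0.133 and 0.109 with vehicle. The lowest IFNβ array lay above the highest vehicle array on both chromosomes. Gene by gene the median effect was 0.09 on chromosome 3 and 0.11 on chromosome 19, ratios of 1.06 and 1.08, against a range of −0.04 to 0.04 over the other autosomes. Within that range the 9 autosomes that were above 0 between the lines lay from −0.04 to −0.01 after IFNβ in 30s, and the other 8 from 0.02 to 0.04, in comparisons that share the 30s vehicle arrays.

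In 30s, 21 members of chromosome 3 (4.68%) and 20 of chromosome 19 (8.26%) were called higher by limma at an adjusted p under 0.05, and 1 and 4 were called lower. The background was 1.03% higher and 1.05% lower among expressed probe sets of the other autosomes, and 1.13% in either direction over all probe sets tested, from which nothing is read here since the chromosomes were chosen on this comparison. Fitting only the 6 arrays of 30s left 0 of these calls by limma on either chromosome (with no adjustment, 202 and 125 members passed 0.05). After Benjamini-Hochberg adjustment 0 members passed the methods' t-test as well, of 200 and 117 that passed with no adjustment.

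Of protein-coding members 91.3% on chromosome 3 and 93.7% on chromosome 19 had a difference above 0, against 55% on the other autosomes. The medians were 0.10 and 0.14 for protein-coding genes, −0.01 for the 102 pseudogenes and −0.11 for the 40 snRNAs and −0.26 for the 8 miRNAs, against 0.01, 0.00253, −0.19 and −0.12 for the same kinds elsewhere. This comparison and that between the lines share the 30s vehicle arrays.

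Along the chromosomes all 18 blocks of chromosome 3 were above 0, from 0.02 (Stxbp3 to Gm23733) to 0.13 (Gon4l to Gatad2b), and all 9 of chromosome 19 were, from 0.05 (Dock8 to Atad1) to 0.21 (Slc3a2 to Patl1). Above 0.05 were 17 of 18 and 9 of 9 blocks, against 42 of 288 elsewhere. The best split of chromosome 19 lay between Osbp and Fam111a, with medians of 0.14 before it and 0.09 after it, and removed 2.24% of the absolute deviation; that of chromosome 3 lay between Gm5858 and Snord45b near its end (0.09 and 0.17, 0.767% removed). The effect therefore also ran over the whole of both chromosomes. On chromosome 19 the higher blocks did not form 1 run. The block from Mrpl21 to Dpf2 at its start and that from Scd1 to Rpl31-ps18 near its end were both at 0.17. The block from Pola2 to Gm16437, in the part before the split, was at 0.08.

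**Figure D5:**
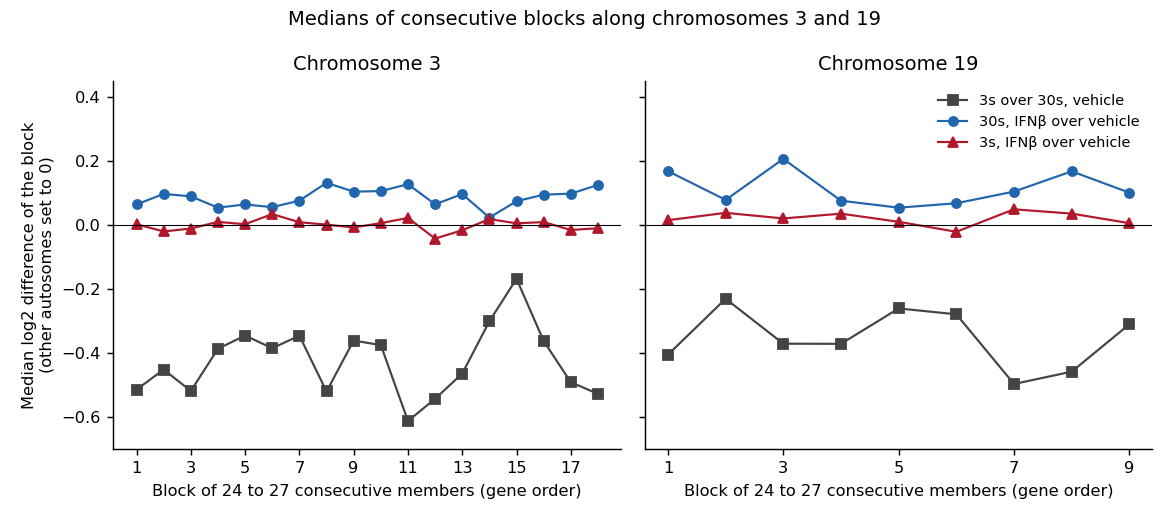
Median log2 difference of consecutive blocks of members along chromosome 3 (18 blocks) and chromosome 19 (9 blocks), in gene order, for 3s over 30s with vehicle (squares), IFNβ over vehicle in 30s (circles) and IFNβ over vehicle in 3s (triangles). Every block is below 0 between the lines and above 0 after IFNβ in 30s, while the 3s blocks lie between −0.04 and 0.05.

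Apart from predicted genes, clones and small RNAs, of which the lncRNA Gm19708 was at 0.69, the called members with the largest differences in 30s on chromosome 3 were Bbs12, a chaperonin-like protein of the cilium, Gpsm2, which orients the spindle, Hadh, an enzyme of fatty acid oxidation, and Ift80, of intraflagellar transport. Bbs12 had 11.25, 11.23 and 11.32 with IFNβ, against 10.96, 10.80 and 10.83 with vehicle. Hadh had 12.70, 12.57 and 12.66 with IFNβ, against 12.23, 12.28 and 12.36 with vehicle. Ift80 had 9.52, 9.58 and 9.59 with IFNβ, against 9.25, 9.21 and 9.25 with vehicle. In each of the 3 the groups did not overlap, as in 52.1% of chromosome 3 members and 23.2% of the expressed probe sets of the other autosomes with all IFNβ arrays above vehicle, and the differences were 0.40 (SE 0.08), 0.35 (SE 0.05) and 0.33 (SE 0.04).

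On chromosome 19 they were Tmem216, a protein of the ciliary transition zone (0.37, SE 0.07), Aldh18a1, of proline synthesis (0.35, SE 0.07), Actr1a, a dynactin subunit (0.34, SE 0.06), and Mrpl16, of the mitochondrial ribosome (0.33, SE 0.07). Leaving out 1 array ended the call for any of 12 arrays for Mrpl16, 10 for Aldh18a1 and 7 for Actr1a. It did so for any of 5 for Tmem216, Bbs12 and Gpsm2, for 1 for Hadh and for 0 for Ift80. With the replicate block Mrpl16 and Aldh18a1 were not called (limma adjusted p = 0.0657 and 0.0534). The 5 called lower were Ms4a1, Atl3, Smarca2 and the lncRNA genes 4833407H14Rik and AI504432. Ms4a1 had 8.12, 8.18 and 8.55 with IFNβ, against 9.18, 9.08 and 9.49 with vehicle. Atl3 had 8.77, 8.90 and 9.06 with IFNβ, against 9.55, 9.44 and 9.59 with vehicle. Side by side with these values, the difference of 3s over 30s with vehicle, which uses the same 30s vehicle arrays, was −1.06 for Bbs12, −0.46 for Hadh, −0.99 for Ift80, 2.11 for 4833407H14Rik and 0.67 for AI504432.

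In 3s, the line with a floxed Runx1, chromosome 3 showed no such shift, while chromosome 19 had a smaller one. Of chromosome 19 members 63.6% had a difference above 0, against 49.9% of the expressed probe sets of the other autosomes. The chromosome 3 median was −0.233, −0.210 and −0.255 on the IFNβ arrays, against −0.228, −0.222 and −0.226 on the vehicle arrays, and the groups overlapped. For chromosome 19 it was −0.178, −0.185 and −0.201 with IFNβ, against −0.236, −0.231 and −0.190 with vehicle, and these also overlapped. The median effect was −0.00022 on chromosome 3, within the range of the other autosomes (−0.02 to 0.01), and 0.02 on chromosome 19, above that range, with 0.0139 to 0.0319 when any 1 array was left out. The difference between the effects in the 2 lines was not tested for the chromosomes as a whole. Blocks were on both sides of 0 on chromosome 3 (11 above and 7 below), and 8 of 9 were above 0 on chromosome 19, all within −0.04 to 0.05.

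By limma 7 members of chromosome 3 (1.56%) rose and 3 fell in 3s, and 3 members of chromosome 19 (1.24%) rose and 0 fell. The background was 1.10% higher and 0.936% lower among expressed probe sets of the other autosomes, and 0.989% in either direction over all probe sets tested, so the members' shares were close to it. Pik3ap1, an adaptor that links the B-cell receptor to PI3K, had 12.64, 12.68 and 12.73 with IFNβ, against 12.12, 12.03 and 12.12 with vehicle. It rose by 0.59 (SE 0.05, adjusted p = 1.68e-04), and it was the largest rise among members of chromosome 19.

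Elovl6 had 13.78, 13.86 and 13.81 with IFNβ, against 13.47, 13.44 and 13.42 with vehicle, and rose by 0.37 (SE 0.04, limma adjusted p = 0.00107). S1pr1, a receptor for sphingosine-1-phosphate that guides lymphocyte exit from tissues, had 9.12, 9.11 and 8.84 with IFNβ, against 8.62, 8.43 and 8.63 with vehicle. It rose by 0.47, a call that ended when any of 9 arrays was left out. Zbtb10 (0.40), Lmo4, a transcriptional cofactor (0.33), Tifa, an adaptor of innate signalling (0.31), Golim4 (0.30) and Ift80 (0.23) rose as well, and on chromosome 19 Atrnl1 (0.42) and Got1 (0.25). Leaving out 1 array ended these calls for any of 9 arrays for Atrnl1, 6 for Got1, 5 for Zbtb10, Lmo4 and Ift80, 4 for Golim4 and 2 for Tifa. With the replicate block S1pr1, Zbtb10, Golim4, Ift80, Atrnl1 and Got1 were not called (limma adjusted p = 0.0574 to 0.1).

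The 3 members that fell in 3s stood next to each other among the members of chromosome 3, at places 307 to 309. Cd53, a leukocyte tetraspanin, had 15.12, 14.97 and 15.02 with IFNβ, against 15.39, 15.41 and 15.33 with vehicle, and fell by 0.34 (SE 0.05, limma adjusted p = 0.00395). Kcna3, the potassium channel Kv1.3 of lymphocytes, had 10.91, 11.02 and 10.89 with IFNβ, against 11.41, 11.30 and 11.29 with vehicle, and fell by 0.39 (SE 0.07, adjusted p = 0.0148). The call of Kcna3 ended when any of 3 arrays was left out. With only the 6 arrays of 3s neither Kcna3 nor Cd53 was called (limma adjusted p = 0.0517 and 0.0702). AI504432, a lncRNA gene, had 12.33, 12.19 and 12.15 with IFNβ, against 12.78, 12.73 and 12.67 with vehicle, and fell by 0.50 (SE 0.07, adjusted p = 0.00383). In 30s the 3 differed, with Cd53 at 0.05, Kcna3 at −0.19 and AI504432 at −0.49.

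The difference of the 2 effects, 3s minus 30s, was fitted in the same model. It passed in 10 members of chromosome 3 (4 higher, 6 lower) and 9 of chromosome 19 (4 higher, 5 lower), against 1.00% of all probe sets tested and 2.26% of the expressed probe sets of the other autosomes. By direction the shares were 0.891% higher and 1.34% lower on chromosome 3, and 1.65% and 2.07% on chromosome 19. Those of the expressed probe sets of the other autosomes were 1.29% and 0.964%. The counts are small, and nothing is read from these shares. The test of the difference contains the effect in 30s on which the chromosomes were chosen. Among members of the role lists, those that passed in either line after IFNβ were Tifa, Cd53, Pik3ap1, Elovl6 and Got1 in 3s, and Ms4a1, Smarca2, Hadh, Got1 and Aldh18a1 in 30s. With the replicate block Got1 was called in neither line and Aldh18a1 was not called in 30s (limma adjusted p = 0.053 to 0.0654).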

How the data were processed

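Total RNA of 12 cultures was hybridised to Affymetrix GeneChip MTA 1.0 arrays, 1 per culture. The deposited log2 values were made by the authors with RMA (background correction, quantile normalisation and probe summarisation) in Affymetrix Expression Console 1.4, per the submitters' processing notes, and were used as deposited. The genome build of the probe annotation was in none of the sources used here, so genes were ordered by RefSeq of GRCm38.p6 and members carry no coordinates. The number of arrays limits the precision. A model with 4 group means was fitted to the 30638 single-symbol probe sets with limma 3.58.1 in R 4.3.3, and p-values were adjusted by Benjamini-Hochberg. The fit was tested on simulated data. The study's methods name a t-test with a fold-change threshold, an alternative here. Named genes were the 4 largest rises and 4 largest falls past the test per chromosome and comparison (predicted genes, clones and small RNAs left out), the 3 members of highest mean per role list, and those beside a split point; others were named after their values were seen. The members and lists were chosen with earlier results of these data known. Other alternatives were the threshold, normalisation, array weights, moderation, replicate block, block size and each array left out.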

Additional observations from a re-analysis of the deposited data

Results flagged for a closer look

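For 8 members named above the effect of IFNβ differed between 3s and 30s by the fitted difference (limma, adjusted p under 0.05, each with 3 arrays per group). The effect in 3s minus that in 30s was 0.71 for Pik3ap1 (adjusted p = 0.00144), 0.68 for S1pr1 (adjusted p = 0.0375), 0.53 for Atl3 (adjusted p = 0.0264), 0.41 for Tifa (adjusted p = 0.0191), 0.41 for Elovl6 (adjusted p = 0.00837), 0.35 for Smarca2 (adjusted p = 0.0332), −0.39 for Cd53 (adjusted p = 0.018) and −0.40 for Hadh (adjusted p = 0.0315). For Pik3ap1 and Elovl6 no single array ended the call when left out, while any of 5 arrays did for Cd53 and Tifa, 8 for Atl3, 9 for Hadh and 10 for S1pr1 and Smarca2. With the replicate block the adjusted p was 0.0715 for Hadh, 0.0854 for S1pr1 and 0.0792 for Smarca2. The chromosomes were chosen on the effect in 30s, which enters each difference. All but Tifa were named for a large called IFNβ effect in 1 line, which favours a called difference. Neither these calls nor their stability therefore give the genes support. Over all 691 members 1.16% passed higher and 1.59% lower, against 1.29% and 0.964% of the expressed probe sets of the other autosomes.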

How the results depend on the processing

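Both chromosomes kept the sign of their medians between the lines and after IFNβ in 30s under every alternative tried. Between the lines, chromosome 3 was at −0.39 with a mean above 7, −0.40 with a mean above 9, −0.40 as a trimmed mean, −0.35 without subtraction of the other autosomes, −0.52 over protein-coding members set against protein-coding genes of the other autosomes and −0.54 over these with a linear correction for level and promoter GC, the last 2 added after seeing the data; chromosome 19 was at −0.29, −0.46 and −0.47 in the last 3 of these. Without one array the chromosome 3 median lay between −0.44 and −0.40 between the lines and between 0.0661 and 0.0914 in 30s. In 30s, chromosome 3 was at 0.12 and chromosome 19 at 0.14 without subtraction, and chromosome 3 at 0.10 with the level and GC correction. In 3s the chromosome 3 median, next to 0, turned to 0.000758 with 1 probe set per gene, 0.00990 without subtraction, 0.00119 after quantile normalization and 0.00144 with the level and GC correction, and lay between −0.0100 and 0.00318 without one array (0.00300 without 3s IFNβ replicate 3, 0.00318 without 3s vehicle replicate 1 and 0.000104 without 30s IFNβ replicate 2). The GC correction over all members was not run, since promoters covered under 80% of them.

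The counts of members called between the lines stayed within 1.5 times under every alternative. Those after IFNβ did not, and they rest on 3 arrays a group. In 30s, 22 members of chromosome 3 and 24 of chromosome 19 became 12 and 10 after quantile normalization, 11 and 10 after cyclic loess, 89 and 71 with only expressed probe sets tested, 8 and 6 with all non-control probe sets tested, and 0 and 0 with only the 6 arrays or with the methods' t-test after Benjamini-Hochberg. That t-test unadjusted with the fold threshold of the methods gave 15 on chromosome 19. Leaving out one array gave 5 to 25 and 4 to 30, both lowest without 30s IFNβ replicate 1. In 3s, 10 and 3 became 2 and 2 with only the 6 arrays and 5 and 1 with all non-control probe sets tested. Chromosome 3 gave 6 with a mean above 9. Chromosome 19 gave 7 with a mean above 7, 5 with array weights, 8 with only expressed probe sets tested and 7 with the unadjusted t-test, and both gave 0 with the adjusted one (40 and 30 at an unadjusted p under 0.05). Leaving out one array gave 4 to 11 (lowest without 3s vehicle replicate 1) and 1 to 5 in 3s.

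Replicate numbers are shared between groups but did not pair the arrays: of 18 same-numbered pairs 3 had deviations correlated above 0.1, within −0.28 to 0.23. With the replicate block 16 and 12 members were called in 30s, 7 and 1 in 3s, and 347 and 178 between the lines.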
